A study of Drosophila melanogaster with 2 samples.

Results

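Divergent promoter summits are binding summits of the CG1024-eGFP fusion protein that lay between the start sites of a pair of protein-coding genes transcribed away from each other. They were taken from the conservative set of peaks called on both replicates together. A summit was counted when its nearest protein-coding transcription start site was at most 500 bp away and downstream of it, and when it also lay upstream of, and at most 500 bp from, the start of a second protein-coding gene on the opposite strand. Of 3397 summits on 7 chromosomes, 423 met this rule (12.5%, 95% Wilson interval 11.4 to 13.6). They fell between the starts of 413 gene pairs, which hold 826 genes. Another 861 summits lay upstream of a nearest start within 500 bp but had no such second gene, and are called single-gene upstream summits below. That group can still include summits with a divergent start past 500 bp or with a second gene on the same strand. Of the rest, 263 lay downstream of their nearest start, and 1850 lay over 500 bp from any protein-coding start.

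The study used chromatin immunoprecipitation with sequencing (ChIP-seq) on whole Drosophila melanogaster embryos aged 0 to 24 hours, from a transgenic strain that makes CG1024 fused to enhanced green fluorescent protein (eGFP). An anti-GFP antibody was used for the precipitation. All samples belong to 1 group, of 2 biological replicates, and no other genotype, age or treatment was sampled, so the comparisons are between parts of the genome and between replicates, and none of them is a test between conditions. Whole embryos mix all cell types, and the sources used here do not give what drives the fusion gene or whether untagged CG1024 is also made. Sequencing depth is unknown, since the lists hold peaks and no read counts.

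In a divergent promoter, neighbouring genes on opposite strands start close together and share the stretch of DNA between them. Such pairs are common in the compact fly genome, and many of their genes are housekeeping genes, active in most cells. Promoters of that kind in Drosophila often lack a strong TATA box and instead carry short elements such as the DNA replication-related element (DRE), bound by Dref and, through an overlapping core, by the boundary protein BEAF-32, the Ohler 1 element bound by M1BP, and the Ohler 7 element.

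The DNA under the strongest divergent promoter summits is short enough to be shown whole. The 5 sequences below run from 1 start site to the other in the 5 pairs of highest signal, on the plus strand of genome build dm6, with the 21 bases centred on the summit in capitals. The stretch between Art3, an arginine methyltransferase gene, and mRpS10, for a protein of the small mitochondrial ribosomal subunit, is chr3R:15229409-15229664. The stretch between CG7601 and CIA30, a complex I assembly factor gene, is chr3R:29736746-29736964. The stretch between apolpp, which encodes the precursor of the main blood lipoprotein, and Zyx, the fly zyxin gene, is chr4:1060919-1060968. The stretch between the protein kinase gene Dyrk3 and Cadps, an activator of dense-core vesicle release, is chr4:1230714-1230836. The stretch between Tcs5, which acts in tRNA modification, and CHMP2B, a subunit of the ESCRT-III membrane-remodelling complex, is chr3L:5139396-5139618.
Art3 and mRpS10: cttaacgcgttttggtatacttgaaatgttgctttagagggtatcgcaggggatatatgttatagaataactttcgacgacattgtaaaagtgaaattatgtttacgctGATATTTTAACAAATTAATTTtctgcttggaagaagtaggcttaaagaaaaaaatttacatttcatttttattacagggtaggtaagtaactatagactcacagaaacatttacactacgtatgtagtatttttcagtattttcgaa
CG7601 and CIA30: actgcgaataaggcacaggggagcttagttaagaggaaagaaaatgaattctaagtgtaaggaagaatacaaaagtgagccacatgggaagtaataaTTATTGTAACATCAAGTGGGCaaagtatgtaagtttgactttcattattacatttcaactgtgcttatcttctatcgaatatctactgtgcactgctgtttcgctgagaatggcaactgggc
apolpp and Zyx: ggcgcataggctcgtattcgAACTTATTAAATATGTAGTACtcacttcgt
Dyrk3 and Cadps: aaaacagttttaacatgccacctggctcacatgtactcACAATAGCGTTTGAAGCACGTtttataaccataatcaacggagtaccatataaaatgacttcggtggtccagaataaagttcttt
Tcs5 and CHMP2B: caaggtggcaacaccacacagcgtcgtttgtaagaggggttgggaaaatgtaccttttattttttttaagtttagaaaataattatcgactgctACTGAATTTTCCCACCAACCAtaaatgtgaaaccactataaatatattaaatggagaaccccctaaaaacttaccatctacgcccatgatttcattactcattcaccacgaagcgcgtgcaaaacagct

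These stretches were 256, 219, 50, 123 and 223 bases long, and their GC content was 30.1%, 37.9%, 40.0%, 37.4% and 38.1%. The full DRE and the Ohler 7 core were absent from the 201-bp windows centred on all 5 summits. The Ohler 1 core was present in the windows of apolpp and Zyx and of Dyrk3 and Cadps. In both it was not within the printed stretch, which is shorter than the window. The BEAF-32 core CGATA was present in 4 of the 5 windows, the exception being Dyrk3 and Cadps. For apolpp and Zyx it too was not within the printed stretch.

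Signal at the strongest summits was alike in the replicates. Peak signal is the authors' own value per peak, on a scale that is not stated, and is given for the series and then for each replicate. The Art3 and mRpS10 summit had a series signal of 877, with 411 in replicate 1 and 466 in replicate 2. The CG7601 and CIA30 summit had 855, with 430 in replicate 1 and 451 in replicate 2. Both summits lay near the middle of their pair, at 120 and 137 bp from the starts of Art3 and mRpS10 and at 108 and 112 bp from those of CG7601 and CIA30. The apolpp and Zyx summit had 853, with 415 in replicate 1 and 450 in replicate 2, between starts 51 bp apart. The Dyrk3 and Cadps summit had 826, with 359 in replicate 1 and 472 in replicate 2. Both of these last pairs are on chromosome 4, a small and largely heterochromatic chromosome. The Tcs5 and CHMP2B summit had 800, with 375 in replicate 1 and 428 in replicate 2, and lay 105 and 119 bp from the starts.

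The others among the 12 strongest ranged in series signal from 412 to 728. Between CenG1A, an Arf GTPase-activating protein gene, and mRpS23, a second gene for the small mitochondrial ribosomal subunit, the summit at base 13835462 of 2L had a series signal of 728, with 388 in replicate 1 and 345 in replicate 2. It lay 102 bp from the CenG1A start and 390 bp from that of mRpS23, so it was not central. Mnat9 and CG1792 had 612, CG13390 and CG17294 had 543, and CG3552 and CG3437 had 481. Between brm, the ATPase of the Brahma chromatin-remodelling complex, and Arl1, a Golgi GTPase gene, the summit at base 15982999 of 3L had 416, with 240 in replicate 1 and 176 in replicate 2. Between Atat, an alpha-tubulin acetyltransferase gene, and the adaptor gene Shc, the summit had 412, with 166 in replicate 1 and 246 in replicate 2. Neither replicate was the higher one throughout these pairs. The 10 strongest summits held 13.1% of the summed signal of the 423.

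The share of annotated divergent pairs that held a summit differed with how far apart the starts were, and so did the room for a summit. The annotation holds 2667 pairs of protein-coding genes with divergent starts at most 1000 bp apart, and 439 of them (16.5%, 15.1 to 17.9) had a summit between their closest starts or between other starts of the same genes, counting every pair a summit fell in. The share was 29.5% (25.8 to 33.5) of the 542 pairs whose closest starts were 201 to 300 bp apart. It was 11.0% of 429 pairs at 1 to 100 bp and 12.3% of 357 pairs at 101 to 200 bp. These short stretches leave less room for a summit, and whether that accounts for the lower shares was not tested. In the class of 1 to 100 bp, 47 pairs held a summit, while only 18 summits lay between starts that close. Some of its summits thus lay between other, wider starts of the same genes. At longer distances it was 21.0% of 400 pairs at 301 to 400 bp and 22.1% of 267 pairs at 401 to 500 bp. It was 6.70% of 672 pairs at 501 to 1000 bp, where the limit of 500 bp to both starts leaves only part of the stretch open to a summit.

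Each replicate's own list gave its highest share in the same class. In replicate 1, 21.6% (18.3 to 25.2) of the pairs with starts 201 to 300 bp apart held a summit, against 11.5% of all pairs, and in replicate 2 the share was 22.9% (19.5 to 26.6) in that class, against 12.8% of all pairs. The next classes, at 301 to 400 and 401 to 500 bp, were at 13.0% and 15.7% in replicate 1 and at 15.5% and 17.2% in replicate 2. The order of those longer classes is within their intervals. The intervals count pairs only, and neighbouring pairs can share a gene.

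**Figure D1:**
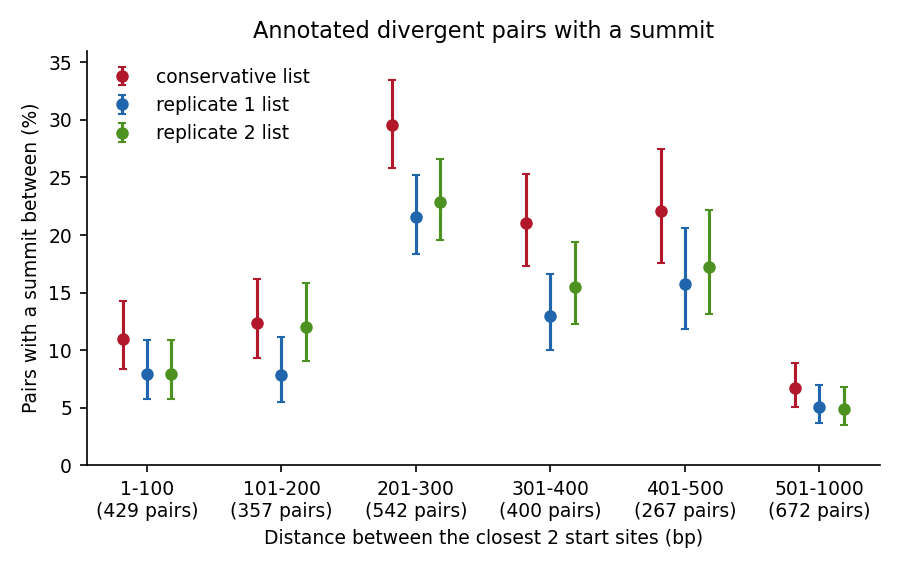
Share of annotated divergent gene pairs with a summit (vertical axis, percent) by the distance between their closest 2 start sites (horizontal axis, bp), for the conservative list, replicate 1 and replicate 2; points are shares and bars 95% Wilson intervals. In all 3 lists the pairs with starts 201 to 300 bp apart have the highest share, 29.5% in the conservative list.

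Replicate 1's list gave 307 pairs and replicate 2's list gave 342. The lists shared 220 pairs, which is 71.7% of the replicate 1 pairs and 64.3% of the replicate 2 pairs. Of the shared pairs, 212 were also among the 439 of the conservative list.

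Genes in divergent pairs were set beside genes that are in none. Of 8916 protein-coding genes outside annotated pairs, 670 (7.51%) had an upstream summit within 500 bp. A pair offers both of its starts and a gene outside pairs offers 1, so the shares are not on the same footing. The stretches between the closest starts of pairs held 379 summits in 627 kb, or 0.604 per kb. The 500 bp upstream of genes outside pairs held 705 summits in 5642 kb, or 0.125 per kb. These densities are not like for like either, since every base between divergent starts is close to and upstream of both, while single-gene upstream summits thin out away from their start, with 225 bp as the upper quartile of the distance. Of all 13968 protein-coding genes, 13% had an upstream summit within 500 bp.

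The place of a summit between its starts varied with how far apart they were. Over the 423 summits, the nearer start was a median of 77 bp away (quartiles 45 and 114.5, range 1 to 314) and the farther start 216 bp away (150 and 346, range 12 to 497). The median distance between the starts was 301 bp (237 and 430, range 19 to 729). In the 149 summits whose starts were 201 to 300 bp apart, the summit was a median of 41.5 bp from the midpoint and 84 bp from the nearer start. In the 71 summits with starts 401 to 500 bp apart it was 153 bp from the midpoint and 70 bp from the nearer start. Those between starts over 500 bp apart (n = 55) were 137.5 bp from the midpoint. They were 135 bp from the nearer start, the widest such median of the 6 classes. There the limit of 500 bp to the farther start increasingly bars summits close to the nearer one. That class therefore cannot show whether the shift toward a start at 401 to 500 bp went on. The medians to the nearer start in the other classes were 20 bp at 1 to 100 bp, 43 bp at 101 to 200 bp and 99.5 bp at 301 to 400 bp. The nearer gene was on the plus strand in 218 cases and on the minus strand in 205.

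**Figure D2:**
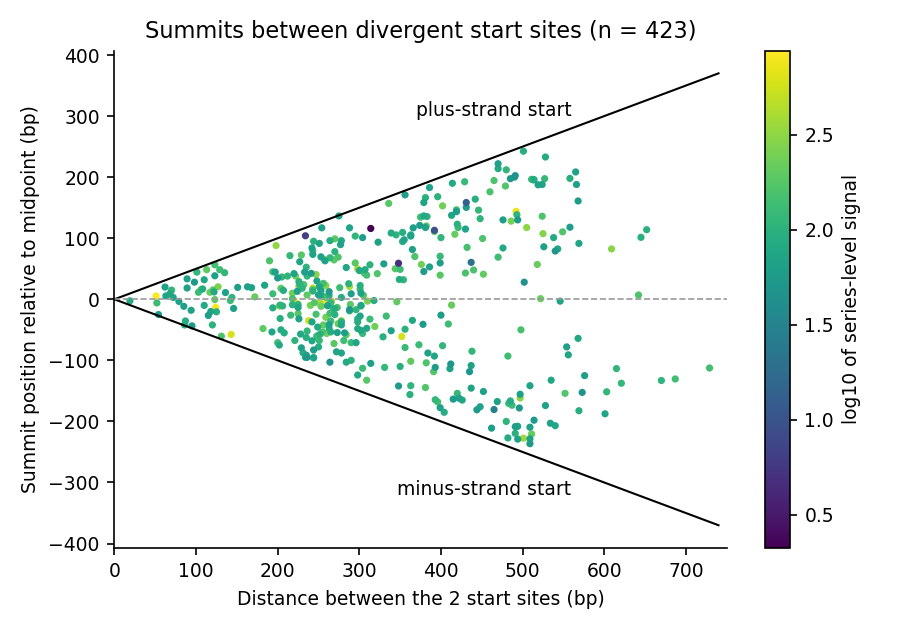
Position of each of the 423 summits relative to the midpoint of its 2 start sites (vertical axis, bp) against the distance between those starts (horizontal axis, bp); each point is 1 summit, its colour is the log10 of its series-level signal, and the solid lines mark the starts. Points with starts 201 to 300 bp apart gather around the midpoint (median 41.5 bp from it), and those with starts 401 to 500 bp apart lie nearer a start (median 153 bp from the midpoint).

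Of the 423 summits, 177 (41.8%) lay within 50 bp of the midpoint and 107 (25.3%) within 150 bp of both starts. The resolution of the lists limits what these distances can show: 369 of the peaks had the same width of 280 bp, with the summit at the centre. The summit of the overlapping peak in replicate 1 was a median of 14 bp from the series summit, and that in replicate 2 a median of 11 bp. The 18 summits between starts at most 100 bp apart are therefore placed between their starts only to about that precision. In 398 cases just 2 protein-coding genes had a start within 500 bp, and in 25 cases there were 3 or more.

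The closest starts were those of MED6, a Mediator subunit gene, and Naa80, an actin N-terminal acetyltransferase gene, at 19 bp. Their summit had a series signal of 79.9, with 50.6 in replicate 1 and 26.4 in replicate 2, and its peak passed the threshold in replicate 1 only. The most distant starts, at 729 bp, were those of CG33062 and Chd3, a chromatin remodeller gene, where the summit had 146, with 68.4 in replicate 1 and 78.1 in replicate 2. Next came app, a palmitoyltransferase gene, and CG32100, at 687 bp, with 140, and 76.8 in replicate 1 and 63.6 in replicate 2. Both wide pairs passed the threshold in both replicates.

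Few of these summits were near other kinds of start. A non-coding gene started within 500 bp of 6 (1.42%) of the divergent promoter summits, against 6.74% of the single-gene upstream summits. An annotated exon covered 51 of the 423, and 84 lay inside the span of 1 of their own genes, upstream of an inner start. When each gene was given its outermost start only, 339 of the 423 were still between divergent starts. At the 500 bp limit, the 6 summits with a farther start 483 to 497 bp away had a median signal of 73.0 (58.1 to 87.4), and the 13 summits just outside it, with that start 501 to 520 bp away, had 103 (38.8 to 366).

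Divergent promoter summits had a lower median signal than single-gene upstream summits. The median was 95.9 (quartiles 68.6 and 146, n = 423) at divergent promoter summits and 114 (77.1 and 216, n = 861) at single-gene upstream summits, a difference of -17.8. Both were above the median of 91.0 over all summits. Summits downstream of their nearest start had a median of 74.2, and those over 500 bp from any start 85.4. In replicate 1 the medians were 46.6 at divergent promoter summits and 59.6 at single-gene upstream summits. In replicate 2 they were 49.9 at divergent promoter summits and 55.8 at single-gene upstream summits. The upper end differed most: 52 divergent promoter summits (12.3%) had a signal over 200, against 235 single-gene upstream summits (27.3%), while 14.7% of all summits did. The highest signal was 877 at a divergent promoter summit and 1675 at a single-gene upstream summit.

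The location of the summits moved with this difference. Chromosome 4 or the 6 Mb next to a centromere held 36 (8.51%) of the divergent promoter summits, against 195 (22.6%) of the single-gene upstream summits. With those regions left out, the median was 95.9 (n = 387) for divergent promoter summits and 99.7 (n = 666) for single-gene upstream summits, a difference of -3.83. In replicate 1 the medians away from those regions were 46.7 for divergent promoter summits and 53.6 for single-gene upstream summits, and in replicate 2 they were 49.9 for divergent promoter summits and 52.3 for single-gene upstream summits. The gap that remained was small beside the distance between the quartiles.

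The difference also depended on the distance to the nearest start. Among summits 51 to 100 bp from it, the median signal was 95.9 (n = 155) for divergent promoter summits and 168 (n = 208) for single-gene upstream summits. Among those 1 to 50 bp away it was 82.4 (n = 124) for divergent promoter summits and 109 (n = 174) for single-gene upstream summits. In the series values the direction was the opposite at longer distances. At 101 to 150 bp the median was 112 (n = 105) for divergent promoter summits and 106 (n = 133) for single-gene upstream summits, and at 151 to 500 bp it was 110 (n = 39) for divergent promoter summits and 96.9 (n = 346) for single-gene upstream summits. At 101 to 150 bp the replicates did not share that direction, with 53.2 for divergent promoter summits and 54.9 for single-gene upstream summits in replicate 1, and 62.3 for divergent promoter summits and 55.2 for single-gene upstream summits in replicate 2. Away from chromosome 4 and the centromeres, the median at 51 to 100 bp was 98.0 for divergent promoter summits and 116 for single-gene upstream summits, and the sign of the series difference in each of the 4 classes was as before.

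**Figure D3:**
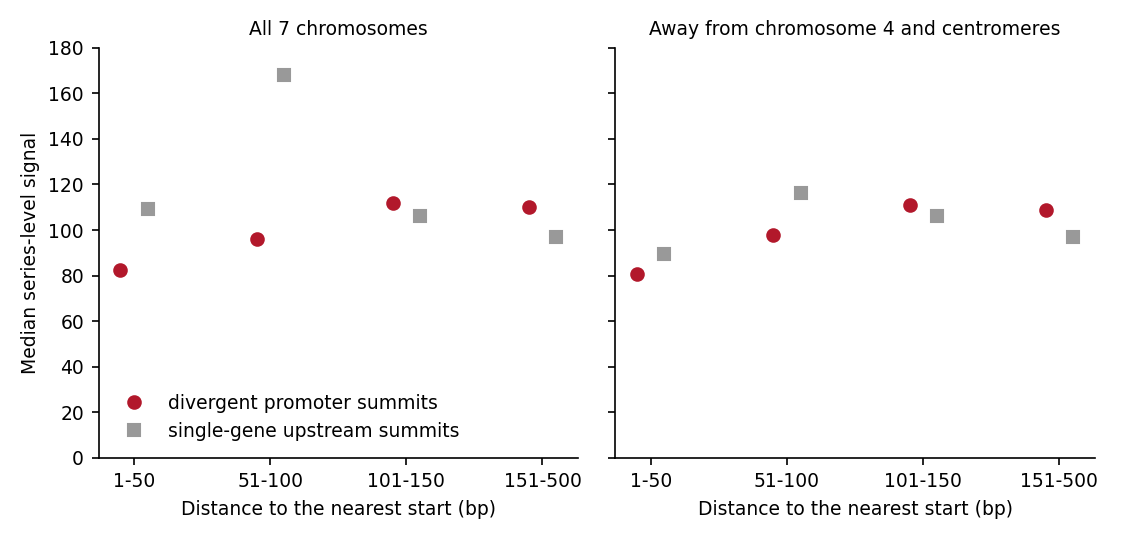
Median series-level signal (vertical axis) of divergent promoter summits (circles) and single-gene upstream summits (squares) by distance to the nearest start (horizontal axis, bp), on all 7 chromosomes and away from chromosome 4 and the centromeres. The gap at 51 to 100 bp is widest over all chromosomes (95.9 for divergent promoter summits, 168 for single-gene upstream summits) and narrower without those regions (98.0 for divergent promoter summits, 116 for single-gene upstream summits).

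**Figure D4:**
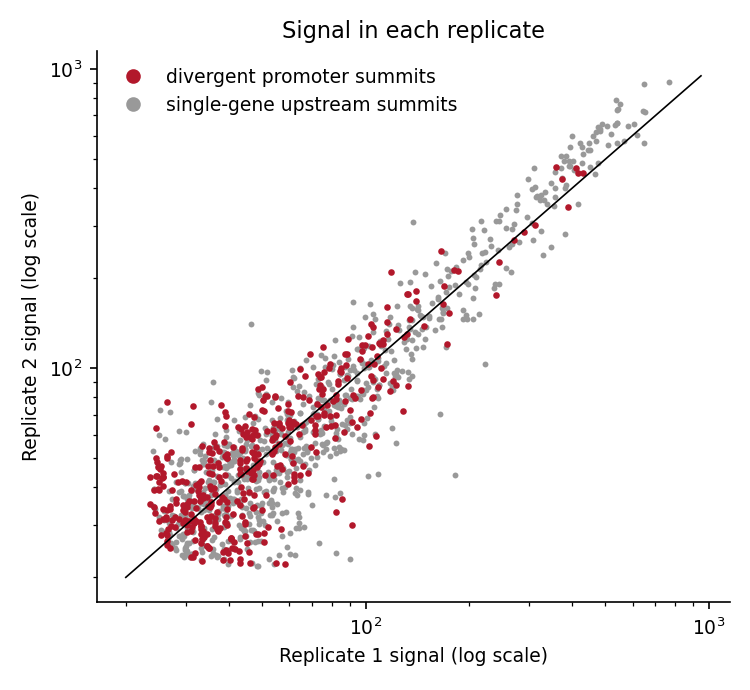
Peak signal in replicate 2 (vertical axis, log scale) against replicate 1 (horizontal axis, log scale) for divergent promoter summits (red) and single-gene upstream summits (grey); each point is 1 summit and the line marks equal values. The signal was higher in replicate 2 for 56.6% of divergent promoter summits and 48.8% of single-gene upstream summits.

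The replicates supported fewer of the divergent promoter peaks than of the single-gene ones. A thresholded peak of both replicates overlapped 214 (50.6%, 45.8 to 55.3) of the divergent promoter peaks, against 544 (63.2%, 59.9 to 66.3) of the single-gene upstream peaks, while the share over all 3397 peaks was 48.6%. Of the other divergent promoter peaks, 50 (11.8%) were thresholded in replicate 1 only, 75 (17.7%) in replicate 2 only and 84 (19.9%) in neither. Away from chromosome 4 and the centromeres the shares in both replicates were 50.6% of divergent promoter peaks and 58.3% of single-gene upstream peaks. In each replicate 421 of the 423 had an overlapping peak in the ranked list. Of all 3397 peaks, 3386 had one in replicate 1 and 3358 in replicate 2. The conservative list was called on both replicates together, so this overlap says little about these peaks in particular. Of the 419 with a value in both replicates, 56.6% (51.8 to 61.2) had the higher signal in replicate 2, against 48.8% (45.4 to 52.1) of single-gene upstream summits and 45.2% of all summits.

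Support was lowest between the closest starts. Where the starts were at most 100 bp apart, 2 of 18 summits (11.1%) were thresholded in both replicates and the median signal was 70.2. At 101 to 200 bp the share was 54.8% of 42 with a median signal of 113, and at 201 to 300 bp it was 59.1% of 149 with 102. The classes of 301 to 400, 401 to 500 and over 500 bp had 46.6%, 49.3% and 45.5%, with median signals of 98.0, 86.5 and 81.1.

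The share of pairs with a summit was lower on the X chromosome than on the large autosome arms, but the difference was not tested. In the conservative list the intervals just met. A summit lay in 49 of 403 X-linked pairs (12.2%, 9.32 to 15.7), against 387 of 2253 pairs on 2L, 2R, 3L and 3R (17.2%, 15.7 to 18.8). In replicate 1 the shares were 9.68% on X and 11.7% on the autosome arms, and in replicate 2 they were 7.20% on X and 13.7% on the autosome arms. The direction was the same in both replicates. The intervals overlapped in replicate 1 (7.16 to 13.0 on X and 10.4 to 13.1 on the autosome arms). They did not overlap in replicate 2 (5.06 to 10.1 on X and 12.4 to 15.2 on the autosome arms). The 4 autosome arms differed little, at 16.1% on 2L, 16.0% on 2R, 17.8% on 3L and 18.4% on 3R. The median signal was 79.8 over the 45 summits on X and 93.7 to 98.0 on the autosome arms. Chromosome 4 had 3 such summits, with a median of 826, in 3 of its 11 annotated pairs.

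In 10 pairs 2 summits lay between divergent starts of the same 2 genes, and no pair had more. Between CG9853 and CG14647 the summits were 470 bp apart, with series signals of 355 and 87.4, and lay 23 and 8 bp from the start of the nearer gene. The stronger one had 169 in replicate 1 and 188 in replicate 2, and the weaker one 61.8 and 43.4. Between Prosalpha6, a proteasome core subunit gene, and the sterol transporter gene Npc1a the summits were 353 bp apart, with signals of 115 and 70.2. The closest starts of that pair are 135 bp apart. Its weaker summit lay inside the span of Npc1a, upstream of an inner start. Between trem and idc the summits were 394 bp apart, with 81.1 and 57.8. Each of the 2 summits in these 3 pairs was thus close to a different gene's start.

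In 5 of the 10 pairs the weaker summit had a signal under 20 and lay 199 to 221 bp from the stronger one. The 3 weakest of the 423 were of this kind: 6.34 between twf, the twinfilin gene, and Abi, a subunit gene of the WAVE complex, 4.87 between CG32202 and Sgf11, a subunit gene of the SAGA complex, and 2.12 between M6 and Glg1. Their peaks overlapped the stronger neighbour's peak, and the replicate values found by overlap were the same for both summits of each pair. For M6 and Glg1 these were 40.6 in replicate 1 and 27.0 in replicate 2, so they are not values of the weaker summit alone. Over the whole set 6 of the 423 had a signal under 20, and the next lowest was 29.0.

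Short promoter elements were counted in windows of 201 bp centred on each summit, on both strands. The 4 sequences below, of up to 121 bases around a summit, show where elements sit between the starts. They were chosen after their values were seen, as strong summits where the printed stretch holds a single match and is clear of annotated exons, and the wider window may hold another. Each runs on the plus strand of dm6 with the element in capitals. The Ohler 7 core, CANCNCTA, is shown for Bulli and CG10147 at chr3L:6488558-6488678. The DRE, TATCGATA, is shown for RpL28 and eIF1 at chr3L:3222961-3223066 and for RpS25 and CG4820 at chr3R:11216291-11216411. The M1BP core, GGTCACACT, is shown on the minus strand for Ire1, the sensor of endoplasmic reticulum stress, and Mrm2 at chr3R:19861346-19861466.
Bulli and CG10147: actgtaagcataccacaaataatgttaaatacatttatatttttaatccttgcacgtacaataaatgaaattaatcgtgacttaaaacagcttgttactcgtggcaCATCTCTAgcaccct
RpL28 and eIF1: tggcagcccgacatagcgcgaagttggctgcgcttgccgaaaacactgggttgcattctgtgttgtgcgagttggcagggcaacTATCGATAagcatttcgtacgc
RpS25 and CG4820: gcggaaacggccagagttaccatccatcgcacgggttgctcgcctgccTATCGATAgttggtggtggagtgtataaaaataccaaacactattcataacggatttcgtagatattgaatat
Ire1 and Mrm2: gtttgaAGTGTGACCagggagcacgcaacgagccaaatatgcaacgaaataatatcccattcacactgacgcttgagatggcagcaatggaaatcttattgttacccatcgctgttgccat

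The summits of these 4 sequences had series signals of 279 for Bulli and CG10147, 171 for RpL28 and eIF1, 126 for RpS25 and CG4820 and 229 for Ire1 and Mrm2. The centre of the element lay 49.5 bp after the summit on the plus strand in the Bulli sequence. In the RpS25 sequence the DRE was 8.5 bp before the summit, and in the RpL28 sequence 42.5 bp after it. An element could thus be near a summit or, as in the Bulli sequence, just past the end of its peak.

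The Ohler 7 core had the largest difference between divergent promoter and single-gene upstream windows among the promoter elements DRE, M1BP core and Ohler 7 core. It was present in 104 (24.6%, 20.7 to 28.9) of the divergent promoter windows, against 13.0% (10.9 to 15.4) of single-gene upstream windows, 11.7% of windows on the midpoints of pairs with no summit, and 9.17% of the 19276 windows upstream of protein-coding starts. A window of a pair takes in promoter sequence of both genes, so pairs with and without a summit were also compared over all the sequence between their closest starts. With the starts 201 to 500 bp apart, the core was present in 32.7% (27.6 to 38.1) of 303 pairs with a summit, against 19.1% (16.7 to 21.8) of 906 pairs with none. By class, the difference was largest at 201 to 300 bp, where the core was in 34.4% (27.5 to 42.0) of pairs with a summit and 17.0% (13.6 to 21.1) of pairs with none. The intervals overlapped in the other classes: 18.2% of pairs with a summit and 15.0% of pairs with none at 101 to 200 bp, 29.8% with and 18.7% without at 301 to 400 bp, and 32.2% with and 23.6% without at 401 to 500 bp. Of the 125 matches in divergent promoter windows, 92 (73.6%) lay on the side of the nearer start and 90 (72.0%) were on the strand of the nearer gene. In single-gene windows 58.1% of 124 matches lay on that side and 66.9% were on that strand.

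**Figure D5:**
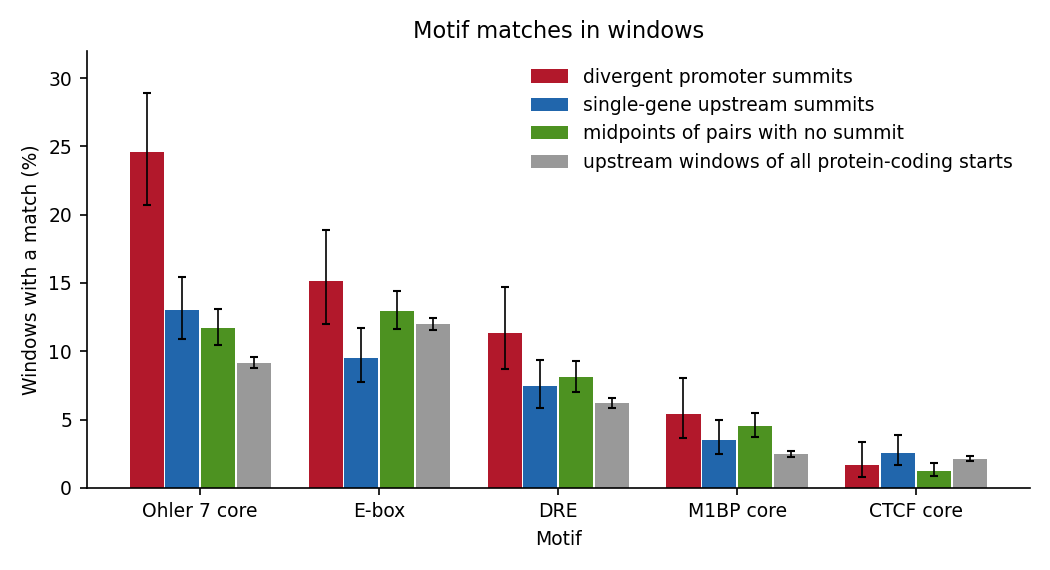
Share of windows of 201 bp with a match to 5 elements (vertical axis, percent) at divergent promoter summits, at single-gene upstream summits, at midpoints of pairs with no summit and upstream of all protein-coding starts; bars are shares and whiskers 95% Wilson intervals. The Ohler 7 core is in 24.6% of divergent promoter windows and in 9.17% to 13.0% of the others.

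The DRE and the M1BP core were also counted. The DRE was present in 11.3% (8.67 to 14.7) of divergent promoter windows and in 7.43% of single-gene upstream windows, with 8.08% at midpoints of pairs without a summit and 6.2% upstream of all starts. Between starts 201 to 500 bp apart it was present in 20.1% of pairs with a summit and 18.7% of pairs without, which is within the intervals. At 101 to 200 bp the DRE was in 27.3% (16.3 to 41.8) of 44 pairs with a summit and 10.5% (7.61 to 14.4) of 313 pairs without. Its core CGATA, which every DRE also contains, was in 47.8% of divergent promoter windows and 36.9% of single-gene upstream windows. It was in 41.6% of windows on midpoints of pairs with no summit and 36.6% of windows upstream of all starts. Between starts 201 to 500 bp apart CGATA was in 63.7% of pairs with a summit and 65.1% of pairs without. The M1BP core was in 5.44% (3.65 to 8.03) of divergent promoter windows, 3.48% of single-gene upstream windows and 2.47% of windows upstream of all starts. Between starts 201 to 500 bp apart the M1BP core was in 5.28% of pairs with a summit and 7.06% of pairs without.

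CACTG did not separate the divergent promoter summits from the single-gene ones. It was present in 47.0% (42.3 to 51.8) of divergent promoter windows and 48.4% (45.1 to 51.8) of single-gene upstream windows. Both shares were above the 29.8% at midpoints of pairs with no summit and the 32.9% upstream of all starts. Midpoints of the pairs with a summit held it in 32.8%, so the higher share was found at the summits and not at the middle of those pairs. Over all the sequence between starts 201 to 500 bp apart it was in 52.8% (47.2 to 58.4) of pairs with a summit and 46.2% (43.0 to 49.5) of pairs without, with overlapping intervals. By class, it was in 11 of 44 pairs with a summit and 92 of 313 pairs without at 101 to 200 bp. Between starts 301 to 400 bp apart it was in 59.5% (48.8 to 69.4) of pairs with a summit and 41.5% (36.2 to 47.0) of pairs without, and at 201 to 300 bp in 42.5% of pairs with a summit and 42.4% of pairs without.

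GAGAGAG, a repeat bound by the GAGA factor, was rare, in 4 (0.946%) of divergent promoter windows, against 5.23% of single-gene upstream windows and 6.18% of windows upstream of all starts. It was also rare at midpoints of pairs with no summit, at 2.56%. The E-box CAGCTG was in 15.1% of divergent promoter windows, 9.52% of single-gene upstream windows and 12% of windows upstream of all starts. Between starts 201 to 500 bp apart it was in 24.8% (20.2 to 29.9) of pairs with a summit and 17.3% (15.0 to 19.9) of pairs without. The CTCF core AGNNGGCGC was in 1.65% of divergent promoter windows, 2.56% of single-gene upstream windows and 2.13% of windows upstream of all starts. CAGGTA, bound by the early embryonic factor Zelda, was in 3.31% of divergent promoter windows, 3.25% of single-gene upstream windows and 4.35% of windows upstream of all starts. The TATA box letters TATAAA were in 41.8% of divergent promoter windows, 34.8% of single-gene upstream windows and 33.6% of windows upstream of all starts, but between starts 201 to 500 bp apart in 57.8% of pairs with a summit and 58.2% of pairs without.

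Windows with one of the 3 housekeeping elements (DRE, Ohler 7 core or M1BP core) were more frequent among the weaker summits. Of the 423, 156 (36.9%) had at least 1 of them. The share was 26.7% in the 105 of highest signal, 39.0% and 38.1% in the next 105 and the 105 after those, and 43.5% in the 108 of lowest signal, and 5 of the 20 strongest had one. The median signal was 83.8 with a DRE and 97.0 without, 70.9 with an M1BP core and 97.3 without, and 91.1 with an Ohler 7 core and 98.5 without. These medians differ by less than the distance between the quartiles of all 423 summits.

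Base composition over the whole stretch between starts 201 to 500 bp apart differed little between pairs with and without a summit. The mean GC content of the windows was 35.5% at divergent promoter summits, 36.7% at single-gene upstream summits, 34.4% at midpoints of pairs with no summit and 39.7% upstream of all starts. Between starts 201 to 500 bp apart the whole stretch had 34.0% ± 4.8 GC (SD, n = 303) in pairs with a summit and 34.4% ± 5.7 (SD, n = 906) in pairs without. Windows on the midpoints had 31.7% GC in pairs with a summit and 34.4% in pairs without, where pairs of every width were included. The central 51 bp of those windows had 29.0% ± 11.2 GC (SD, n = 439) in pairs with a summit and 34.5% ± 12.3 (SD, n = 2228) in pairs without. These midpoint values were not matched for width. Whole stretches at 101 to 200 bp had more GC, at 38.4% in pairs with a summit and 40.7% in pairs without. Whether the mix of widths accounts for the midpoint difference was not tested.

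Genes of divergent promoter summits were counted in gene lists, most of them of housekeeping groups. The lists were chosen with earlier results of these data known, so the kinds of groups named follow from that choice. Of all 13968 protein-coding genes, 5.91% were 1 of the 2 genes of such a summit, and of the 5052 genes in annotated divergent pairs 16.3% were. Over 16 lists of 771 genes, 99 (12.8%) were, or 21.5% of the 461 list genes that are in an annotated pair. The second share is the one to set beside 16.3%, since list genes are often in divergent pairs. By list it ranged from 11.5% for proteasome subunit genes to 33.9% for cytoplasmic ribosomal protein genes. The lists were matched by symbol pattern, so a match does not show that a gene has the role its list is named for. They are also not complete. PolD2, a DNA polymerase delta subunit gene (signal 249), is in none of them. Nor are the splicing genes SNRPG (167) and BCAS2 (162), and AP-1sigma and CHMP2B among vesicle and membrane genes. These 5 were noted after their values were seen, and the strongest genes named below are the strongest on their list.

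Cytoplasmic ribosomal protein genes, matched by symbol and including like-named copies, had 19 of 93 members at a divergent promoter summit (20.4%), or 33.9% of the 56 in annotated pairs. An upstream summit of either kind was found at 54 of the 93, while 13% of all genes had one, so the high share was not limited to divergent promoters. The strongest was RpL14, paired with Nelf-E, a subunit gene of the pausing factor NELF, with a series signal of 266, and 130 in replicate 1 and 127 in replicate 2. RpL41, paired with the sodium channel gene NaCP60E, had 196, with 109 in replicate 1 and 86.6 in replicate 2. Mitochondrial ribosomal protein genes had 10 of 73 (17.2% of the 58 in pairs), among them mRpS10 and mRpS23 above. Translation factor genes had 6 of 58 (22.2% of 27), the strongest listed being eIF4EHP with CG18428 at 232 and eIF1 with RpL28 at 171. Aminoacyl-tRNA synthetase genes, which charge tRNAs, had 5 of 33 (21.7% of 23), the strongest listed being GluProRS with AP-1sigma at 222 and GlnRS with RIOK2 at 198.

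Among transcription and RNA groups, Mediator and TFIID subunit genes had 8 of 40 (25.8% of the 31 in pairs), the strongest listed being MED30 with Rev1 at 157 and Taf5 with Pex6 at 125. RNA polymerase subunit genes had 4 of 30 (21.1% of 19), the strongest listed being Polr2B with 140up at 148 and Polr2J with CG15141 at 105. Splicing factor genes had 5 of 35 (16.7% of 30), the strongest listed being Prp31 with the mismatch repair gene Msh6 at 81.8 and Sf3b6 with Tnpo at 73.5. The insulator list had 2 of 15, Cp190 with CG4338 at 131 and Dref with RpL13 at 111. The Polycomb and trithorax list had 2 of 24 (15.4% of 13), brm above and Asx with Cpsf160 at 83.1. The summit between RpL13 and Dref lay 6 bp from the RpL13 start and 95 bp from that of Dref, the gene for the factor that binds the DRE.

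Among energy and protein turnover groups, oxidative phosphorylation genes had 7 of 90 (15.6% of the 45 in pairs), the strongest listed being ND-ASHI with Fum1 at 216 and ND-51 with CG13994 at 158. Proteasome subunit genes had 3 of 48 (11.5% of 26), the strongest listed being Prosbeta1 with Rrp42 at 181. Mitochondrial import genes had 2 of 16 (33.3% of 6), Tom20 with Gabat at 240 and Tom7 with CG8229 at 66.9. Chaperone genes had 5 of 37 (27.8% of 18), the strongest listed being Hsc70-4 with tefu at 162 and Hsc70-5 with CG8531 at 92.3. Genes matched by symbol to cell cycle and replication had 8 of 58 (23.5% of 34). The strongest listed were Cdk12 with SAK at 133 and RnrS with CG34231 at 110. Genes matched by symbol to ubiquitin conjugation and like pathways had 3 of 23 (30.0% of 10). The strongest listed were Uba2 with Cds at 111 and Uba3 with tum at 95.1. Vesicle transport genes had 10 of 99 (17.2% of 58), the strongest listed being Vps33B with Fur1 at 150 and alphaCOP with CG13919 at 132. In the 16 lists no pair had both of its genes in the same list. The shares of the smaller lists rest on few genes, and none was tested.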

How the data were processed

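Peak lists of 2 CG1024-eGFP embryo samples, biological replicates 1 and 2, were used. Sonicated fragments measured 200 to 800 bp and the build is dm6, per the labels. Which aligner and peak caller were used is not given in the sources used here. Deposited by the authors were a signal for each peak, on a scale that is not stated, and, in the ranked lists, the −log10 of the global irreproducible discovery rate (IDR). Per the deposited inventories, lists were called with a control per replicate and for both replicates together.

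Start sites are all transcript starts of protein-coding genes in Ensembl release 115, and sequences come from the Release 6 genome of RefSeq, the same build as dm6. A replicate's signal at a series peak is the highest among its overlapping ranked peaks (at least 1 bp). Stretches between starts leave out the start bases. Shares have 95% Wilson intervals, which cover counting only. With 1 group, no hypothesis test was run. The 10 motifs were searched on both strands with Python 3.11.15, numpy 2.4.6 and pandas 2.3.3. The rule for members and the motif search were tested on simulated data.

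Named genes are those of the 12 strongest summits thresholded in both replicates, the 3 weakest, the 2 closest and 2 widest pairs, up to 2 per gene list, and 3 pairs with 2 summits; 1 of these pairs is not reported here. The members and lists were chosen with earlier results of these data known. Alternatives were the other series-level list, each replicate alone, stronger peaks, an IDR of 0.05, limits of 200 and 1000 bp, outermost starts, the 5 large chromosome arms, another overlap and windows of 50 bp each side. Removal of chromosome 4 and of 6 Mb next to centromeres was added after seeing the data.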

Additional observations from a re-analysis of the deposited data

How the results depend on the processing

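The signal difference from single-gene upstream summits was negative under each alternative run, while many sizes moved. The 423 summits became 226 among peaks at or above the median signal and 189 with a limit of 200 bp. Their share of all summits (12.5%) was 9.77% at an IDR of 0.05, 5.56% at 200 bp, 16.6% at 1000 bp and 9.98% with outermost starts, and 11.4% to 14.5% with 1 replicate's list alone. The median signal (95.9) was 89.7 in the other series-level list, 137 in the stronger peaks, 81.2 at an IDR of 0.05, 105 at 200 bp, 97.0 at 1000 bp and 94.9 with outermost starts, and 59.4 to 60.4 with 1 replicate, on that list's own scale. The signal difference from single-gene upstream summits (-17.8) was -11.5 in the other list, -37.2 in the stronger peaks, -9.08 at an IDR of 0.05, -4.97 at 200 bp, -11.0 at 1000 bp, -14.3 on the 5 large arms and -3.83 away from chromosome 4 and centromeres, and -10.7 to -9.05 with 1 replicate. The causes were not tested.

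The share of peaks thresholded in both replicates (50.6%) was 86.7% in the stronger peaks, 41.7% at an IDR of 0.05 and 57.1% at 200 bp; with 1 replicate's own peaks, 68.8% to 75.1% overlapped the other's. The share of pairs with a summit (16.5%) was 18.3% in the other list, 8.89% in the stronger peaks, 20.1% at an IDR of 0.05, 11.7% at 200 bp and 14.4% with outermost starts, and 11.5% to 12.8% with 1 replicate. The share of genes outside pairs (7.51%) was 8.36%, 4.96%, 9.77%, 6.64% and 6.26% under these settings in the same order, 8.46% at 1000 bp, and 5.79% to 6.40% with 1 replicate. The median distance between starts (301 bp) was 290 bp in the stronger peaks, 232 bp at 200 bp and 386 bp at 1000 bp, and 290 to 298 bp with 1 replicate; that to the nearer start (77 bp) was 88.5 bp in the stronger peaks and 82 bp at 200 bp, and 79 to 81 bp with 1 replicate. In windows of 50 bp each side, the DRE was in 5.44%, CACTG in 26.2% and the M1BP core in 1.89%. CACTG was in 40.7% at 200 bp. The Ohler 7 core and the other motifs were not among the planned results and were not run under these alternatives.

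Of the 439 pairs, 419 were also found with the other list, 264 with replicate 1 and 295 with replicate 2. No paired analysis was possible because there is 1 group. Depth is unknown, so a pair without a summit is one where none was called, not one shown to be unbound. Summits are resolved to about the shift between lists, and the peaks are of nearly fixed width.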
